A study of Drosophila melanogaster with 52 samples.

Results

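In imaginal discs and brains of last-instar Drosophila melanogaster larvae, 135 genes were set apart in the pho mutant libraries from every wild-type and Spps mutant library. They were chosen by measured values: log2(FPKM + 1), where FPKM is fragments per kilobase of transcript and per unit of library size, had to lie at least 0.3 above the highest, or at least 0.3 below the lowest, of the 7 other libraries in all 3 pho mutant libraries. Of 16502 genes in the table, 9580 had the required mean of 1 FPKM or more over the 10 libraries. Of these, 73 genes (0.762%) met the rule on the higher side and 62 (0.647%) on the lower side. Because the pho mutant values chose the genes, their differences from the other libraries are given as a description, with no test.

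Poly(A) RNA was sequenced from 3 wild-type libraries (WT), 4 libraries of Spps mutants (SppsKO) and 3 libraries of pho mutants (PhoKO), and the samples share the tissue and a culture temperature of 25 °C. Per the design text, Spps mutants lacked both the maternal and the zygotic product, whereas pho mutants lacked only the zygotic product, so maternal Pho may have been present earlier in development. The labels name no allele, stock background or sex. The series' 42 ChIP-Seq samples were not analysed here.

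Pleiohomeotic, the product of pho, is a zinc finger protein that binds DNA at Polycomb response elements and brings Polycomb group complexes to chromatin. Spps is a DNA-binding factor of the Sp1 and KLF family that acts at the same elements. Polycomb repressive complexes keep developmental regulators silent where they are not needed, and Polyhomeotic is a core subunit of the first of these complexes. In discs and brains they are best known for holding Hox genes and other selector genes off.

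Libraries did not differ greatly in breadth, with 9422 to 9503 genes at 1 FPKM or more in WT, 9269 to 9309 in SppsKO and 9455 to 9537 in PhoKO. All SppsKO libraries nevertheless lay below every WT and PhoKO library. The absolute depth is unknown, but the step size of low FPKM values gave a relative depth of 59.9% for WT 3 and 63.7% for PhoKO 1 when WT 1 was taken as 100%, and of 87.1% to 106.1% for the other libraries. Genes of the labelled tissue were expressed, such as the neuronal gene elav (59.0 to 68.6 FPKM over the 10 libraries) and the glial gene repo (16.1 to 22.8). The disc genes vg (14.3 to 18.1) and Dll (48.8 to 66.5) were as well. Genes of other tissues were also present and varied widely between libraries. The fat body gene Lsp2 ranged from 155 to 1395 FPKM and the muscle gene Mhc from 1.42 to 56.2. The part of such tissue in the differences of members was not tested. The Spps transcript stood at 12.2 to 12.9 FPKM in WT, 0.877 to 1.04 in SppsKO and 13.5 to 13.8 in PhoKO. Nothing in the labels ties the libraries of a group to separate crosses or dissections. P-values therefore reflect how these particular libraries spread, and part of that spread may be technical.

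The higher and lower genes occupied different ranges of expression. Higher genes were mostly at low levels outside PhoKO: their median level in the other 7 libraries was 2.06 FPKM, 17 of the 73 averaged under 1 FPKM there and 44 under 5 FPKM. Lower genes were expressed at a median of 14.8 FPKM in the other 7, and 14 of the 62 averaged 50 FPKM or more. Over all 9580 genes this median was 20.3 FPKM. Part of this contrast is set by the rule, because the minimum mean counts the PhoKO values. A higher gene near 0 in the other 7 could pass through PhoKO alone, whereas a lower gene could not be near 0 there. The median difference, PhoKO minus the other 7 on the log2(FPKM + 1) scale, was 0.94 for higher genes (range 0.42 to 5.15) and -0.86 for lower genes (range -4.75 to -0.42), beside -0.00 over all genes. A difference of 1 or more in size was reached by 34 higher and 24 lower genes, and a difference of 2 or more by 11 and 6. Over all 9580 genes, 253 reached a difference of 1 or more in size, so most such genes were not members. This scale understates the change of genes with low values.

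**Figure D1:**
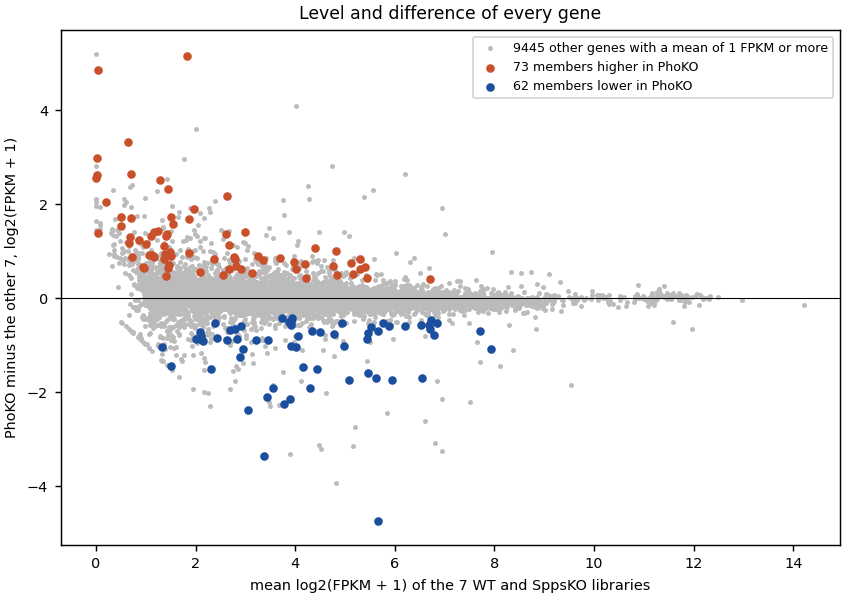
Each point is a gene with a mean of 1 FPKM or more; the x axis gives its mean log2(FPKM + 1) in the 7 WT and SppsKO libraries and the y axis the PhoKO mean minus that mean. The 73 higher members (orange) lie mostly to the left, at low levels, and the 62 lower members (blue) spread to higher levels. The minimum mean, which counts the PhoKO values, sets part of this. Grey points with equally large differences are genes whose libraries overlapped or were separated by less than 0.3.

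At the threshold, the higher genes just inside were nrv2 (gap 0.30) and CG3630 (gap 0.30), and those just outside were Qtzl (gap 0.28) and CG14933 (gap 0.28). On the lower side CG1792 and CG5704 were just inside (gap 0.30 each), and CG42259 (gap 0.30, below the threshold before rounding) and CG4300 (gap 0.29) just outside. Applied to the other groups, the same rule set apart 140 genes in SppsKO, 42 higher and 98 lower. It set apart 96 genes in WT, 50 higher and 46 lower. With no minimum gap, 601 genes had all PhoKO values above the other 7 and 706 had all below.

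**Figure D2:**
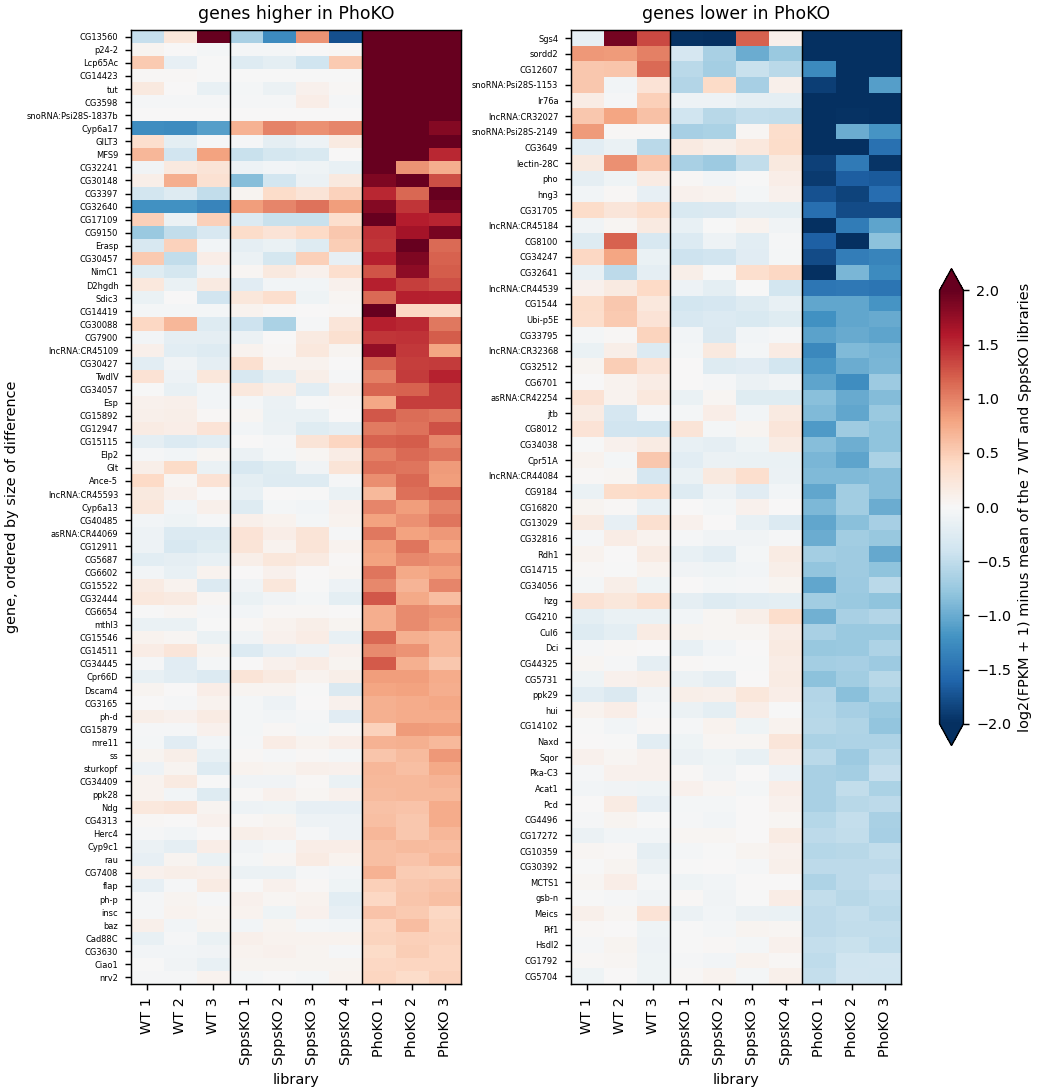
Each row is a member (1 lower gene is not drawn) and each column a library; colour gives log2(FPKM + 1) minus the mean of the 7 WT and SppsKO libraries, clipped at -2 and 2. The 3 PhoKO columns stand apart in every row by the rule, whereas WT and SppsKO also differ in some rows, such as Cyp6a17 and CG32640 on the left and sordd2 on the right.

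Among the Polycomb group genes themselves, pho was on the lower side and both Polyhomeotic genes were on the higher side. The pho transcript stood at 53.7, 57.2 and 67.8 FPKM in WT, at 61.3, 58.5, 60.4 and 66.8 in SppsKO and at 15.3, 18.7 and 18.3 in PhoKO. The PhoKO libraries thus kept a lower but measurable level, 17.5 ± 1.86 FPKM (SD, n = 3), and no label tells where in the gene the mutation lies. It was the sole member on chromosome 4. Its paralog phol, which is not a member, was at 30.1 to 32.4 FPKM in WT and SppsKO and at 32.6 to 34.7 in PhoKO.

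The gene ph-d stood at 18.8, 18.4 and 19.5 FPKM in WT, 16.8, 16.6, 17.1 and 14.6 in SppsKO and 28.9, 29.8 and 29.7 in PhoKO. Its neighbour ph-p stood at 34.2, 36.0 and 34.3 in WT, 36.9, 35.8, 36.4 and 29.9 in SppsKO and 46.4, 51.3 and 53.3 in PhoKO. Both genes were highest in all PhoKO libraries, and SppsKO 4 was the lowest library for both. The next gene along, D2hgdh (listed as CG3835), encodes D-2-hydroxyglutarate dehydrogenase, which oxidises D-2-hydroxyglutarate. It stood at 8.20, 6.29 and 8.01 FPKM in WT, 5.86, 6.68, 6.68 and 7.46 in SppsKO and 22.4, 19.9 and 18.5 in PhoKO. All 3 neighbours were thus higher together, with differences of 0.73 for ph-d, 0.52 for ph-p and 1.41 for D2hgdh, while the flanking genes csw (-0.16) and Pgd (0.06) were not members. The ph genes are near-identical in sequence, so fragments may be split between them and the level of each is uncertain. Of the 29 Polycomb group genes listed, all with a mean of 1 FPKM or more, these 3 were members, and the median difference over the list was 0.06.

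**Figure D3:**
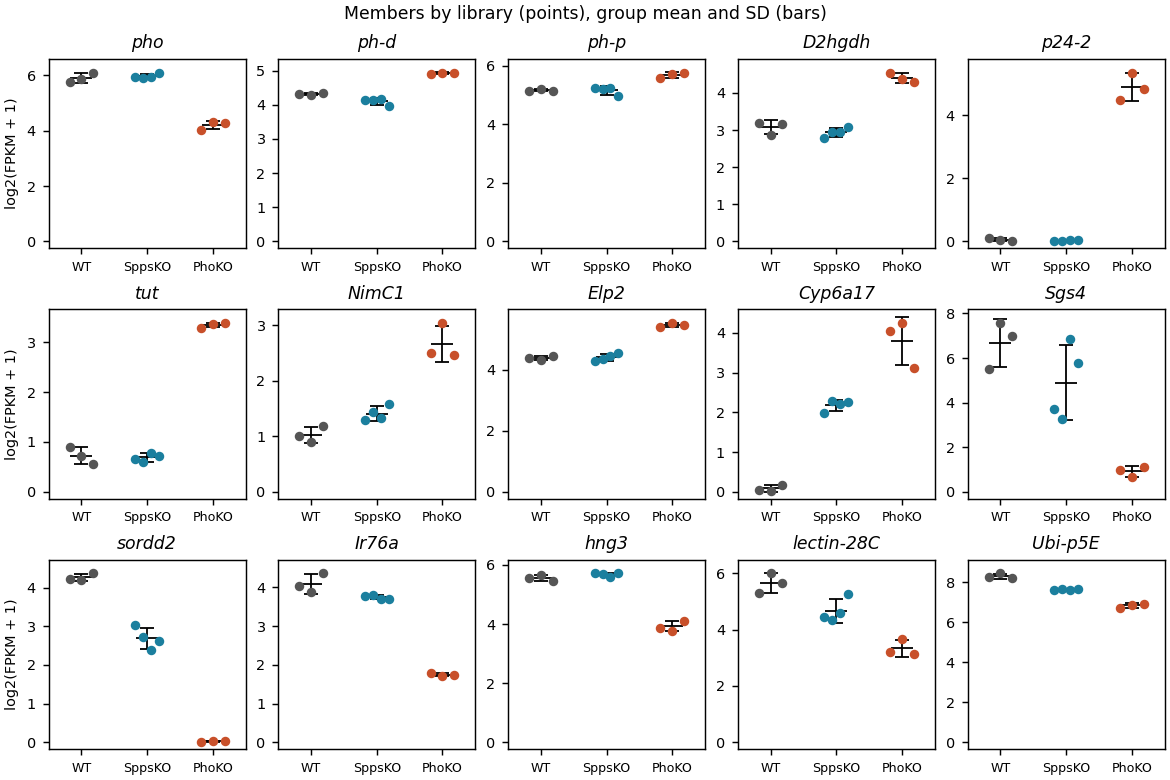
Points are libraries, horizontal bars group means and whiskers SD of log2(FPKM + 1), for 15 members. PhoKO libraries stand apart in each panel, SppsKO libraries overlap WT for pho, tut, Elp2, hng3 and Sgs4 and lie between WT and PhoKO for Cyp6a17, sordd2 and Ubi-p5E.

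Members made up 1.41% of all genes with a mean of 1 FPKM or more, and lists of developmental genes held about as few. Of 95 Polycomb target transcription factor genes with a mean of 1 FPKM or more, gsb-n, a Pax gene of segment and neural patterning, was a member. It stood at 4.23, 4.12 and 3.99 FPKM in WT, 4.34, 3.97, 4.19 and 4.80 in SppsKO and 2.72, 2.55 and 2.66 in PhoKO. The groups are narrow, and PhoKO was the low one. None of 6 Hox genes, 20 trithorax group genes, 20 Notch target and Bearded family genes, 16 Wnt, 10 Hedgehog or 19 Dpp pathway genes met the rule, and at the share over all genes lists of these sizes would hold hardly any member. Outside that list, the bHLH-PAS gene ss (spineless), which specifies antennal and distal leg identity, was at 5.33 to 6.57 FPKM in WT and SppsKO and at 9.29, 9.87 and 11.9 in PhoKO.

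Several higher genes went from almost no signal to clear expression. The p24 family gene p24-2, of a family of cargo receptors of the early secretory pathway, was listed at 0.0674, 0.0340 and 0 FPKM in WT and at 0, 0, 0.0317 and 0.0376 in SppsKO. In PhoKO it stood at 21.3, 40.1 and 27.7 FPKM. This was the widest separation of any member, with a gap of 4.38 on the log2 scale. The related gene eca, which is not a member, was at 77.4 to 88.4 FPKM in all 10 libraries, and the genes on either side of p24-2 were low, Unc-115b averaging 0.674 FPKM in PhoKO and listed at 0 in the others, and CG32939 at 0 throughout. Fragments could be shared between p24-2 and related copies.

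CG14423 and CG3598, both on the X chromosome, behaved alike. CG14423 was at 0.0222 FPKM or less in the other 7 libraries and at 7.72, 8.89 and 4.97 in PhoKO. CG3598 was listed at 0 in 6 of the other 7 libraries and at 0.120 in SppsKO 3, and stood at 7.35, 5.05 and 3.86 in PhoKO. Neither had a neighbour on the reference gene order with a mean of 1 FPKM or more. The gene tut, whose product works with Bam and Bgcn in the male germline, stood at 0.866, 0.642 and 0.469 FPKM in WT, 0.578, 0.506, 0.720 and 0.653 in SppsKO and 8.79, 9.26 and 9.45 in PhoKO. Its 3 PhoKO values were close together, and WT and SppsKO overlapped. None of 15 germline genes on the marker list met the rule (tut was not on it).

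CG13560 had the largest difference, 5.15, but also a wide spread. It stood at 1.58, 3.19 and 27.5 FPKM in WT, 1.28, 0.50, 5.62 and 0.0506 in SppsKO and 398, 117 and 41.9 in PhoKO. WT 3 came near the lowest PhoKO value. GILT3, of the family of lysosomal thiol reductases, was at 1.37 to 2.43 FPKM in the other 7 libraries and at 17.1, 10.1 and 11.1 in PhoKO. MFS9, of the major facilitator family of transporters, was at 3.55 to 9.85 and at 47.7, 24.3 and 16.6. For both genes, as for CG13560, PhoKO 1 was the highest library. PhoKO 1, the shallow library, decided the size of 2 members: CG32241 stood at 24.9 FPKM there and at 1.14 and 0.897 in the other PhoKO libraries, and CG14419 at 9.24 against 0.365 and 0.364. Both are low in the other 7, at 0.372 FPKM or less, and neither they nor CG6602 met the rule without PhoKO 1. Over all 73 higher genes, PhoKO 1 was the highest of the 3 PhoKO libraries for 23, PhoKO 2 for 26 and PhoKO 3 for 24.

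Cuticle genes appeared on both sides. Of 60 cuticle genes with a mean of 1 FPKM or more, 3 were higher and 1 lower, and the list median was 0.28. Lcp65Ac, a larval cuticle protein gene, stood at 1.24, 0.396 and 0.555 FPKM in WT, 0.310, 0.362, 0.185 and 1.25 in SppsKO and 42.7, 9.63 and 7.26 in PhoKO. The Tweedle gene TwdlV was at 0.282 to 0.970 FPKM in the other 7 and at 2.23, 3.23 and 3.66 in PhoKO. Cpr66D was at 7.51 to 8.27 in WT, 9.71 to 11.3 in SppsKO and 17.3, 17.2 and 16.2 in PhoKO. Cpr51A went the other way, from 36.8 to 62.2 FPKM in the other 7 libraries to 22.0, 19.9 and 27 in PhoKO.

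Cytochrome P450 genes contributed 3 higher members of 32 (list median 0.21) and none lower. The summed level of all listed P450 genes was nevertheless lowest in PhoKO. It was 1630 to 1690 FPKM in WT, 1634 to 1770.5 in SppsKO and 1493 to 1516 in PhoKO. Cyp6a17 stood at 0.0326, 0.0164 and 0.136 FPKM in WT, at 2.95, 3.86, 3.61 and 3.79 in SppsKO and at 15.5, 18 and 7.71 in PhoKO, so that the 3 groups did not overlap. Cyp6a13 was at 1.19 to 2.06 FPKM in the other 7 libraries and at 4.18, 3.68 and 4.22 in PhoKO. Cyp9c1 was at 13.3 to 16.8 and at 23.6, 24.1 and 23.9. The Cyp6a genes have near copies among which fragments could be shared.

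Some higher genes encode matrix, adhesion or blood cell proteins. Glt, which encodes the basement membrane glycoprotein glutactin, was at 21.7 to 36.0 FPKM in the other 7 libraries and at 59.9, 58.8 and 50.3 in PhoKO. Ndg, which encodes nidogen, a linker of basement membranes, was at 0.739 to 1.30 and at 1.93, 1.89 and 2.24. The adhesion genes Dscam4, of the immunoglobulin superfamily (12.0 to 16.2 FPKM against 26.3, 26.5 and 25.0), and Cad88C, a cadherin (1.39 to 1.84 against 2.61, 2.68 and 2.63), were also members. Of 57 immunoglobulin superfamily and axon guidance genes Dscam4 was the 1 member, and the list median was 0.05. NimC1, a phagocytosis receptor of blood cells, stood at 1.01, 0.868 and 1.27 FPKM in WT, 1.45, 1.72, 1.51 and 1.98 in SppsKO and 4.69, 7.23 and 4.49 in PhoKO. It was the 1 member among 20 hemocyte and crystal cell genes. Their list median was 0.40, and their summed level was 982 to 1150.2 FPKM in WT, 784 to 886 in SppsKO and 958 to 1219.5 in PhoKO. Ance (336 to 566 FPKM over all libraries) and Fer1HCH (269 to 324) were the highest genes in that sum. Other listed genes did not move alike. In WT, SppsKO and PhoKO in turn, eater was at 9.59 to 13.4, 2.93 to 7.76 and 4.98 to 8.38 FPKM. PPO2 was at 50.1 to 93.8, 9.8 to 17.9 and 39.1 to 54.4, and Pxn at 16.3 to 20.4, 11.2 to 13.8 and 19.2 to 26.7. For eater, PPO2 and Pxn all SppsKO values lay below WT, whereas for NimC1 they lay above. The part of blood cell content in the NimC1 value was not tested.

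Some members with roles in neuroblasts, glia or the eye differed by small amounts. The asymmetric division genes insc and baz, whose products form an apical complex in dividing neuroblasts, had differences of 0.50 each. The level of insc was 4.25 to 5.28 FPKM in the other 7 libraries and 7.77, 7.43 and 6.85 in PhoKO. That of baz was 26.3 to 29.4 and 37.2, 42.7 and 37.6. Of 28 neuroblast and ganglion mother cell genes, insc was the 1 member (list median 0.12), and baz was not on that list. The glial sodium pump subunit gene nrv2 stood at 102, 102 and 109 FPKM in WT, 100.5, 103, 101 and 109 in SppsKO and 140.4, 134 and 143 in PhoKO. It was the 1 member among 21 glia genes, whose summed level was 961 to 1002 FPKM in WT, 977 to 1054 in SppsKO and 1046 to 1109 in PhoKO. The adaptor gene rau, of growth factor signalling in the eye, was at 5.72 to 7.45 FPKM against 10.5, 10.2 and 10.9, as the 1 member among 24 retinal genes. The list medians were 0.20 for glia and 0.21 for retina, and the part of tissue composition in these differences was not tested.

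Other higher genes with known products were spread over cell functions. Elp2, a subunit of the Elongator complex that modifies transfer RNA, stood at 19.8, 19.2 and 20.8 FPKM in WT, 18.5, 19.5, 20.8 and 22.4 in SppsKO and 41.3, 45.4 and 43.3 in PhoKO. All PhoKO values lay well above the rest, with a difference of 1.07. Its neighbour Git differed by 0.08, and its neighbour CG12934 averaged 22.5 FPKM in WT, 46.6 in SppsKO and 49.7 in PhoKO and did not meet the rule. The DNA repair nuclease gene mre11 was at 22.0 to 29.0 against 42.8, 43.1 and 41.5 FPKM. Ciao1, of the cytosolic iron-sulphur assembly machinery, was at 38.5 to 44.4 against 57.2, 57.6 and 57.5. The Methuselah-like receptor gene mthl3 was at 35.1 to 41.9 against 64.4, 75.0 and 70.4. The water taste channel gene ppk28 was at 1.28 to 1.88 against 3.20, 3.23 and 3.26. Sdic3, one of a tandem cluster of sperm dynein intermediate chain genes, was at 0.730 to 1.82 against 3.90, 5.56 and 5.52, while Sdic1, Sdic2 and Sdic4 were at 0.124 FPKM or less. Fragments of such copies could be assigned to any of them.

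On the lower side, Sgs4, a salivary gland glue gene, had the largest difference (-4.75). It stood at 44.1, 189 and 126 FPKM in WT, 11.9, 8.71, 114 and 53.4 in SppsKO and 0.948, 0.586 and 1.17 in PhoKO. All PhoKO values were low, but the other libraries ranged widely. Salivary glands are not part of the labelled tissue. Of 9 glue genes with a mean of 1 FPKM or more, Sgs4 was the 1 member, the list median was -1.84, and the summed level was 989 to 6529.9 FPKM in WT, 292 to 3079 in SppsKO and 134 to 1771 in PhoKO. The glue gene Sgs5, for example, was at 338, 84.5 and 17.8 FPKM in PhoKO and at 49.4 to 1013 in the other libraries, which overlap. In whole tissue, fewer cells of a type and less RNA per cell cannot be told apart. The part of gland content in the Sgs4 value was not tested.

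The gene sordd2 (listed as CG32581) stood at 17.8, 17.5 and 19.7 FPKM in WT, 7.14, 5.58, 4.20 and 5.20 in SppsKO and 0, 0.0195 and 0.0205 in PhoKO. WT was highest, SppsKO lay between and PhoKO was near 0. CG12607 followed the same order, at 11, 11.1 and 17.0 in WT, 4.14 to 5.05 in SppsKO and 2.4, 0.110 and 0.0487 in PhoKO. The long non-coding RNA CR32027 did so too, at 14.8, 17.8 and 15.2 FPKM in WT, 6.42 to 7.25 in SppsKO and 1.21, 1.76 and 1.63 in PhoKO. The long non-coding RNA CR44539 was lower, at 2.00, 2.21 and 2.76 FPKM in WT, 1.64, 1.48, 1.84 and 1.19 in SppsKO and 0.0431, 0.0562 and 0.0315 in PhoKO. Counting all of them, 5 long non-coding RNAs were lower and 2 higher. Of 326 genes with a CR number and a mean of 1 FPKM or more, a set that overlaps these, 4 were lower and 3 higher members. The median difference of that list was -0.01.

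The ionotropic receptor gene Ir76a, of a family of chemosensory channels, stood at 15.4, 13.6 and 19.6 FPKM in WT, 12.8, 12.9, 12.1 and 11.9 in SppsKO and 2.44, 2.26 and 2.34 in PhoKO. CG14102, which overlaps it in the reference annotation, was at 5.53 to 6.27 and at 3.69, 3.54 and 3.00. Overlapping genes can share fragments, since the strand setting of the counting is not given in the sources used here. The channel gene ppk29 was at 4.31 to 6.59 and at 3.30, 2.62 and 3.16. Of 24 chemosensory genes, Ir76a and ppk29 were lower members and ppk28 a higher one, and the list median was 0.04. The C-type lectin gene lectin-28C was at 19.4 to 62.7 FPKM in the other libraries and at 8.26, 11.7 and 7.69 in PhoKO. Of 12 lectin and Nimrod genes it was the 1 lower member, beside NimC1 on the higher side. Another lower member, hng3, was at 42.9 to 51.5 FPKM and at 13.7, 12.7 and 16.3.

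Lower genes at high levels included several of metabolism. Dci (fatty acid beta-oxidation) was at 44.7 to 56.2 FPKM in the other 7 and at 28.9, 29.2 and 32.0 in PhoKO. Acat1 (a thiolase) was at 68.9 to 79.9 against 46.2, 51.6 and 46.7, and Hsdl2 (a dehydrogenase-like protein) at 97.1 to 111 against 74.8, 76.5 and 72.9. Sqor, which oxidises sulphide in mitochondria, was at 52.2 to 63.6 against 39.5, 34.5 and 39.7. These 4 differences lay between -0.70 and -0.47 on the log2(FPKM + 1) scale. Naxd, which repairs damaged NADH, was at 38.6 to 52.7 against 28.4, 28.7 and 28.9. Pcd, which recycles the cofactor tetrahydrobiopterin, was at 81.4 to 102 against 58.3, 62.3 and 63.5. These enzymes were picked out after their values were seen, so no count over a metabolic list is given.

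Ubi-p5E, a polyubiquitin gene, stood at 309.9, 348 and 295 FPKM in WT, 195, 201, 195 and 204 in SppsKO and 105, 117 and 120.5 in PhoKO. The ranges of the 3 groups did not overlap. The other polyubiquitin gene, Ubi-p63E, was at 227 to 268 FPKM in WT, 233 to 262 in SppsKO and 212 to 233 in PhoKO and is not a member. MCTS1, a translation reinitiation factor, was at 107 to 125 against 74.2, 78.9 and 82.8. Repeats within polyubiquitin genes make the level of Ubi-p5E uncertain.

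The snoRNAs Psi28S-1837b (0 in the other 7; 4.25, 4.88 and 5.59 FPKM in PhoKO), Psi28S-1153 and Psi28S-2149 (both lower) also met the rule. Poly(A) libraries measure such short RNAs poorly.

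The rule did not compare SppsKO with WT, since it treats those 7 libraries alike. Their highest or lowest value nevertheless decided membership, so this contrast is not independent of the rule. The contrast asks whether genes set apart in pho mutants also differed in Spps mutants. In 1 limma fit over all 9748 genes with 1 FPKM or more in at least 3 libraries, 8.18% were called at a Benjamini-Hochberg adjusted p under 0.05, 3.92% higher and 4.26% lower in SppsKO. Of the 135 genes 133 could be tested, CG32241 and CG14419 being too low. Most were not called: 63 of 71 higher genes and 53 of 62 lower genes. However, the filter of 1 FPKM in 3 libraries can be met by PhoKO alone. Higher genes near 0 in both WT and SppsKO, such as p24-2, CG3598, CG14423 and Psi28S-1837b, could hardly be called. They are among the 63 not called and among the small differences given next. The median difference, SppsKO minus WT, was -0.01 for higher and -0.08 for lower genes, beside 0.00 over all tested genes, and it was under 0.2 in size for 44 of the 71 and 35 of the 62. A missed threshold does not show that the groups were equal. Without adjustment, at p under 0.05 by limma, SppsKO was higher for 18 and lower for 6 of the 71 higher genes. It was higher for 5 and lower for 16 of the 62 lower genes. The share of all tested genes under that unadjusted p is not given here, so no excess is read from these counts.

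Still, 17 members were called, so these genes were not all shifted in pho mutants alone. Of the 71 higher genes, 6 (8.45%) rose and 2 (2.82%) fell in SppsKO. Of the 62 lower genes, 8 (12.9%) fell and 1 (1.61%) rose. In the direction of the PhoKO difference, both shares lie above the background of 3.92% and 4.26%. In the opposite direction, 2 genes and 1 gene are too few to set against it. Each of those calls was lost when 1 of several libraries was left out. The difference of these shares from the background was not tested. In 14 of the 17 the SppsKO mean lay between those of WT and PhoKO. The rule leaves no room for SppsKO beyond PhoKO, so a call in the PhoKO direction had to lie between. Under quantile normalization the calls over both sides were 15 higher and 6 lower in place of 7 and 10, so the balance of directions depends on the scaling.

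Cyp6a17 rose in SppsKO by 2.1 (SE 0.23, adjusted p = 0.000448 by limma), CG32640 by 2.19 (SE 0.12, adjusted p = 6.32e-06 by limma) and CG9150 by 0.91 (SE 0.13, adjusted p = 0.002 by limma). CG9150 stood at 1.18, 1.60 and 1.92 FPKM in WT, 3.70, 3.40, 3.80 and 4.29 in SppsKO and 9.09, 10.6 and 12.6 in PhoKO, a stepwise order with no overlap. Smaller rises were those of Cpr66D (0.36, SE 0.06) and CG5687 (0.32, SE 0.06). On the lower side sordd2 fell by 1.58 (SE 0.13, adjusted p = 6.72e-05 by limma), CR32027 by 1.12 (SE 0.09, adjusted p = 6.89e-05 by limma) and Ubi-p5E by 0.67 (SE 0.06, adjusted p = 0.000173 by limma). CG1544 fell by 0.65 (SE 0.09), CG31705 by 0.56 (SE 0.07) and hzg (CG5830) by 0.50 (SE 0.04). These 11 calls were kept when any 1 of the 7 libraries was left out.

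The other 6 calls were each lost when 1 of several libraries was left out. They were CG12911 (0.39, SE 0.10), CG32512 (-0.49, SE 0.12), Meics (-0.24, SE 0.06) and the 3 genes that moved against the PhoKO direction, ph-d (-0.21, SE 0.05), CG12947 (-0.34, SE 0.07) and ppk29 (0.33, SE 0.08). Without SppsKO 2 or SppsKO 3 all 6 were lost. CG12911 was also lost without any other WT or SppsKO library, ph-d without any but SppsKO 4, ppk29 without any but WT 3 and Meics without any but WT 2. CG12947 was lost without WT 1 or WT 3 as well, and CG32512 without WT 2, WT 3 or SppsKO 4. The highest limma adjusted p in these fits was 0.127, for ph-d. For Sgs4 the SppsKO difference was -1.79, with a spread between SppsKO libraries that left it uncalled.

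**Figure D4:**
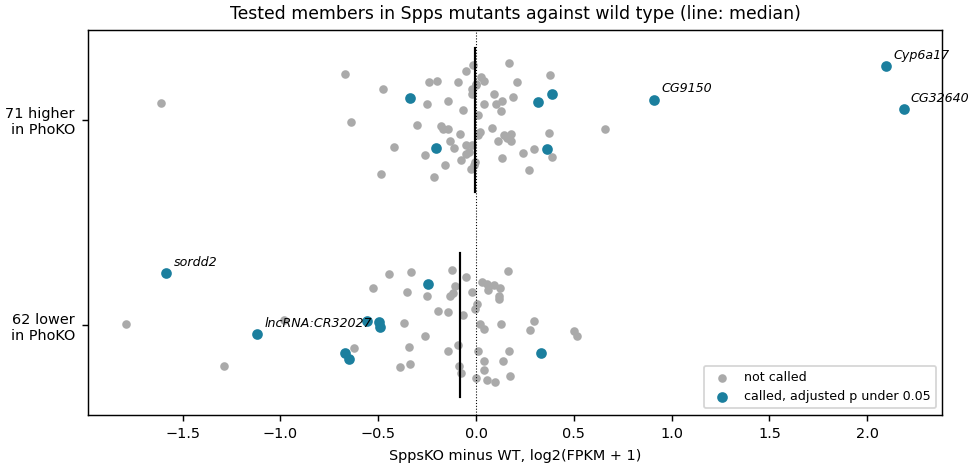
The x axis gives SppsKO minus WT on the log2(FPKM + 1) scale for the 71 higher and 62 lower members that were tested; vertical position within a row is arbitrary, black lines are medians (-0.01 and -0.08) and blue points are the 17 called genes. Most points lie near 0, while Cyp6a17 and CG32640 on one side and sordd2 and CR32027 on the other stand well away from it. Higher genes with almost no signal in WT and SppsKO could only lie near 0.

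In the contrasts with PhoKO, on which the rule acted directly, limma called 9.66% of tested genes between PhoKO and WT and 14.4% between PhoKO and SppsKO. Of the members, 70 of 71 higher and 60 of 62 lower genes were called in the first and 71 and 59 in the second, which follows from how they were chosen and is no result.

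Members were compared with the gene order of the Release 6 plus ISO1 MT assembly, used for names, arms and neighbours because the files use an older build. All 135 symbols matched. Chromosome arm 3L held 24 of the 62 lower genes (38.7%) and 14 of the 73 higher genes (19.2%), beside 19.9% of all genes with a mean of 1 FPKM or more. Arm 2L held 9.63% of members beside 17.8% of all genes. The X chromosome held 17.8% beside 16.5%, which are close. These shares are descriptions, with no test.

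Neighbouring members occurred as 8 adjacent pairs, which involve 15 members, and 4 of the pairs were on the same side. No such share was worked out over all genes, so clustering of members is not read from these pairs. Besides the run of ph-d, ph-p and D2hgdh, sturkopf (CG9186, a lipid droplet protein) and Herc4 (CG9153, a HECT ubiquitin ligase) lay side by side on 3L. Sturkopf was at 34.2 to 44.1 FPKM in the other libraries and at 65.5, 62.7 and 69.8 in PhoKO, and Herc4 at 35.7 to 41.3 and at 61.3, 56.1 and 60.9. Their flanks CG2469 (0.11) and Myo61F (0.13) were not members, but CG9184, the next gene after Myo61F, was lower (-0.87).

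In 4 adjacent pairs the partners lay on opposite sides. CG32640 and CG32641, neighbours on the X chromosome, differed by 1.73 and -1.46. CG32640 stood at 0.221, 0.223 and 0.126 FPKM in WT, 4.06, 4.57, 5.0 and 4.06 in SppsKO and 9.11, 6.64 and 9.69 in PhoKO, and CG32641 at 15, 11.3 and 14.7, at 18.1, 16.7, 21.4 and 22.6 and at 2.80, 8.44 and 6.41. Where one was high in PhoKO the other was low, and whether fragments are shared between these neighbours was not tested. The pairs CG34057 (1.24) and CG34056 (-0.77), CG6654 (0.86) and CG4210 (-0.73), and CG15879 (0.72) and CG5704 (-0.42) were likewise opposed. Allowing up to 2 genes in between gave 14 pairs with 22 members, 7 pairs on the same side and 7 on opposite sides. For these pairs too no share over all genes was worked out.

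**Figure D5:**
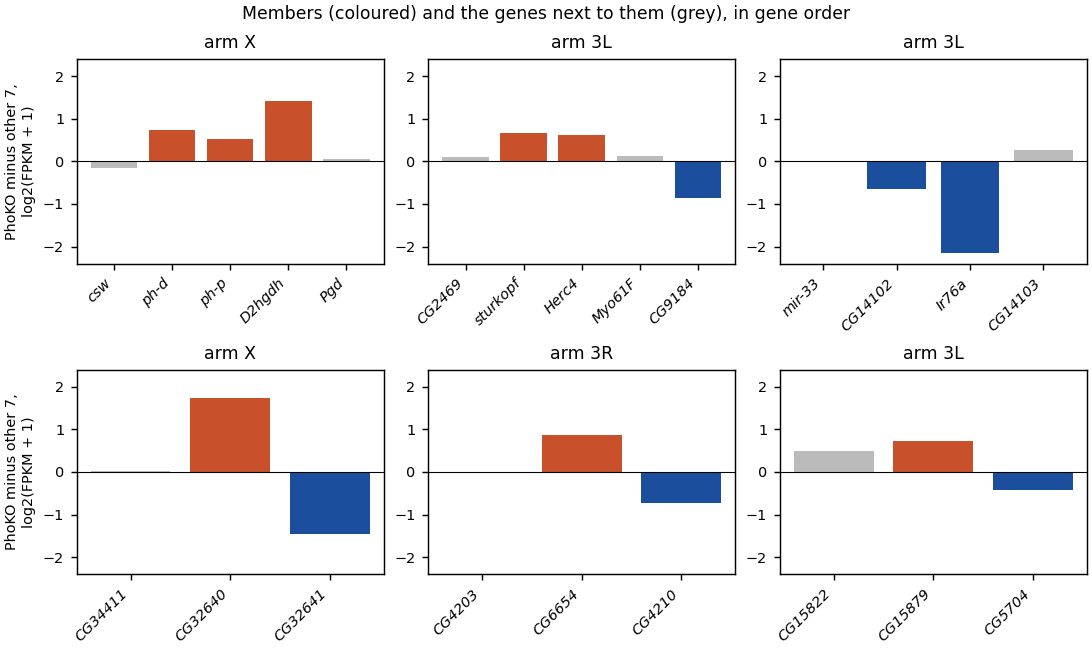
Bars give PhoKO minus the other 7 libraries on the log2(FPKM + 1) scale for members (orange above 0, blue below) and for genes next to them (grey), in the order of the reference annotation. The run from ph-d to D2hgdh and the pair sturkopf and Herc4 are higher together, CG14102 and Ir76a lower together, and the 3 lower panels each hold members of opposite sign.

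Members were often genes without a descriptive name. Of the 135 genes, 84 (62.2%) carry only a CG number, beside 43.3% of all genes with a mean of 1 FPKM or more, and 22 of these 84 have a name in the current annotation. Protein-coding genes made up 69 of the higher and 54 of the lower members. The median SD of log2(FPKM + 1) among the 3 PhoKO libraries was 0.136 for higher and 0.121 for lower members, beside 0.0753 over all genes. Among WT libraries it was 0.0943 and 0.114, beside 0.0856, and among SppsKO libraries 0.0909 and 0.0941, beside 0.0746. No single PhoKO library stood at one end throughout.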

How the data were processed

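The deposited table holds FPKM per gene for 10 RNA-Seq libraries, normalized by the authors before deposit. The submitters' processing notes name TopHat2 2.1.1, Cufflinks, Cuffnorm and HTSeq among others, and the builds dm3 and BDGP5. Neither the tool that made the values nor the strand setting is stated in the sources used here. Groups come from sample titles. Values were taken as log2(FPKM + 1).

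The members, the gene lists and the rule for named genes (the largest differences, list members, neighbours, genes at the threshold and genes called in SppsKO versus WT) were chosen with earlier results of these data known. Further genes with a known product were named after their values were seen. Genes with 1 FPKM or more in at least 3 libraries (9748) entered a limma model (version 3.58.1 under R 4.3.3, robust empirical Bayes with a mean-variance trend) of all 10 libraries, with Benjamini-Hochberg adjustment over all genes fitted. The fit was tested on simulated data. FPKM gives no counting error, so error comes from libraries alone. Alternatives were pseudocounts of 0.1 and 5, margins of 0.2 and 0.5, filters, median-of-ratios scaling, quantile normalization, fits without trend or without PhoKO, a block on replicate number, and omission of libraries. A planned search for promoter motifs was not run, for want of sequences here. Python 3.11.15 with pandas 2.3.3 and matplotlib 3.10.9 was used. Values of 1 lower gene are not reported here.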

Additional observations from a re-analysis of the deposited data

Results flagged for a closer look

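Among the 4 SppsKO libraries, 1 library stood apart from the other 3, relative to their range, for 9 of the 135 genes. Chance alone gives such a library in about 1 of 20 groups, so 9 of 135 is near the number that chance gives. Some of the distances were small in FPKM. SppsKO 4 was the distant library for 4 of the 9. It held ph-p at 29.9 FPKM against 35.8 to 36.9 in the other SppsKO libraries, Erasp (listed as CG30090) at 3.09 against 1.42 to 1.63, CG14715 at 118 against 103 to 104, and Cul6 (CG11261) at 3.73 against 3.36 to 3.41.

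SppsKO 2 held baz at 28.5 FPKM against 26.4 to 26.7 and CG33795 at 1.05 against 1.40 to 1.46. SppsKO 1 held CG6654 at 11.5 FPKM against 12.1 to 12.2 and Cad88C at 1.84 against 1.77 in each of the others. SppsKO 3 held CG3598 at 0.120 FPKM, where the others were listed at 0, so any signal in 1 library would have been flagged.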

How the results depend on the processing

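The numbers of genes set apart, 73 higher and 62 lower, depended most on how strict the rule was. A pseudocount of 5 gave 38 and 40, a margin of 0.5 gave 43 and 27, a margin of 0.2 gave 96 lower, and a minimum mean of 5 FPKM gave 37 higher. Leaving out 1 library gave 74 to 123 higher, where fewer libraries have to agree. The most came without PhoKO 3, beside 83 without PhoKO 1 and 98 without PhoKO 2. PhoKO 3 was the lowest PhoKO library for 31 of the 73 higher genes, PhoKO 1 for 28 and PhoKO 2 for 14. What sets PhoKO 3 apart here was not tested. Without both shallow libraries, WT 3 and PhoKO 1, an alternative chosen after seeing the data, 98 were higher and 100 lower. Quantile normalization kept 64 of the higher and 59 of the lower genes. In SppsKO versus WT, 7 members were called higher and 10 lower. Quantile normalization gave 15 and 6, and leaving out 1 library gave 6 to 10 lower, with 6 without SppsKO 2 or SppsKO 3. A replicate block gave 5 and 7, but same-numbered libraries did not deviate together (correlations from -0.377 to 0.110), so the numbers give no pairing. No SppsKO difference of the 17 called members changed sign under the alternatives tried. The PhoKO differences of members kept their sign too, but this is no result. The rule fixes that sign when a library is left out or the pseudocount is changed. Low genes are limited by depth, most of all in WT 3 and PhoKO 1.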
